A study of Mus musculus with 2 samples.

Results

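The ZIP family of zinc importers was examined in primary osteoblasts of wild-type and *Slc39a13*-KO mice, that is, in cells in which 1 member of the family, Slc39a13 (ZIP13), had been removed by gene targeting. The genes were chosen by name: all probe sets annotated to exactly 1 gene symbol, where that symbol was one of 10 ZIP genes, gave 21 probe sets out of 34945 with a single gene symbol, and the 10 genes were among 18193 genes on the array. The osteoblasts came from the calvaria, the skull vault, of newborn animals, were freed with collagenase and dispase and were grown in medium with fetal calf serum. In the *Slc39a13*-KO mice a *Neo* cassette replaced an internal block of exons that encodes a motif conserved across the family, and the line was made from targeted R1 embryonic stem cells. The study's methods name C57/B6J mice for RNA used in RT-PCR, and the sources used here do not state whether the pups behind the arrays were of that strain, nor their sex, how many were pooled for a culture, or the time in culture.

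ZIP proteins carry zinc toward the cytoplasm, either inward across the cell surface or out of organelles such as the endoplasmic reticulum and the Golgi apparatus. The exporters of the SLC30 (ZnT) family move zinc the opposite way, and metallothioneins bind it in the cytoplasm. The best known human disease of the family is acrodermatitis enteropathica, a zinc deficiency caused by loss of the intestinal importer ZIP4.

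RNA of each genotype was read on 1 Affymetrix Mouse Genome array, so each difference below is between 2 arrays without a replicate, and no test of it was possible. The values are MAS5 signals, which are linear brightness values in arbitrary units for a probe set (a group of short oligonucleotides for 1 transcript). Signals of different probe sets cannot be compared with each other, so differences are taken between the wild-type and *Slc39a13*-KO values of the same probe set. Sums over a list of genes, where given, mostly follow its brightest probe sets. A signal of 85.1, the median over all probe sets of both arrays, served as the floor: lower signals were raised to it before the log2 ratio (*Slc39a13*-KO minus wild-type) was taken, and probe sets exceeding it in either array were counted as measured. The median log2 ratio over all 12269 measured genes was 0.11 as scaled. The poly-A spike controls gave lower signals in *Slc39a13*-KO for 24 of the 24 above the floor (median log2 ratio -1.02), and scaling on them would move the median of all genes to 0.94. Directions are therefore relative to the bulk of genes. In such bulk cultures, fewer cells of a type and less RNA per cell cannot be told apart.

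Of the 10 ZIP genes, 2 differed by 2-fold or more, Slc39a13 and Slc39a8, both toward lower signals in *Slc39a13*-KO, and 0 were higher by that much as scaled (6 with poly-A scaling). Over all measured genes, 5.93% were lower and 8.01% higher by the same rule as scaled. These shares do not apply to the 6 genes with poly-A scaling, where the median of all genes (0.94) was itself just under 2-fold. With Slc39a13 set aside, the log2 ratios of the other 9 genes ran from -1.63 to 0.47 with a median of 0.0037, beside 0.11 for all genes, and 8 of the 9 (88.9%) lay within 1.5-fold, beside 67.7% of all measured genes. The family therefore lay near the bulk of genes: with poly-A scaling, too, the median of the 9 genes (1.03) stood beside 0.94 for all genes. Of the 21 ZIP probe sets 16 were measured, 2 of them at least 2-fold lower and 0 higher, where 6.54% and 9.79% of all 21885 measured probe sets were. Differences of at least 1.5-fold in either direction were seen for 6 of the 16 (37.5%), close to the 35.6% of all measured probe sets. Without the probe set of the targeted gene, 15 were measured, 1 of them at least 2-fold lower and 0 higher. Of these 15, 5 (33.3%) differed by at least 1.5-fold.

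**Figure D1:**
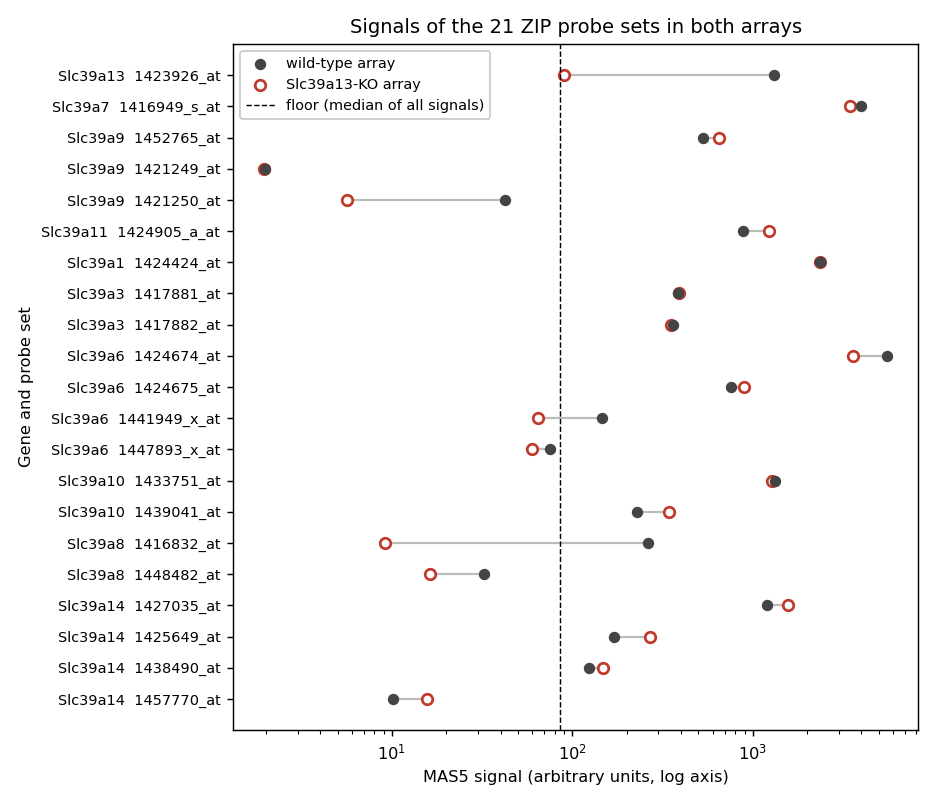
MAS5 signal (horizontal, arbitrary units, log axis) of each of the 21 ZIP probe sets in the wild-type array (filled) and the Slc39a13-KO array (open), with a dashed line at the floor of 85.1. Only the 2 points of a row are comparable; the single Slc39a13 probe set falls from 1309 to 90.4 and the brighter Slc39a8 probe set from 263 to 9.2, while most other rows above the floor nearly overlap.

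The targeted gene was read by 1 probe set. Slc39a13 read 1309 in wild-type cells against 90.4 in *Slc39a13*-KO cells, a 14.5-fold difference that left 6.9% of the wild-type signal, just above the floor. Of the 8932 genes measured above the floor on both sides, 9 were lower by a larger factor. Genes that fell below the floor in *Slc39a13*-KO are not in this count. Among them Ccl2 and Ccl7 were lower by more, by factors of at least 27.7 and 16.6. This goes with the labels of both arrays. Whether the oligonucleotides of this probe set lie inside or outside the removed exons was not established here, so the value checks the labels and does not by itself tell how much truncated transcript was left.

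The genes of the other ZIP proteins that act mainly inside the cell differed by less than 2-fold between the arrays as scaled. Slc39a7 (ZIP7), which releases zinc from the endoplasmic reticulum, read 3964 in wild-type against 3459 in *Slc39a13*-KO, 1.15-fold lower as scaled (log2 ratio -0.20, 0.83 with poly-A scaling), on a single probe set whose suffix marks oligonucleotides shared by several transcripts. Slc39a9 (ZIP9), found in the Golgi apparatus, had signals of 527 and 652 on its only measured probe set, 1.24-fold higher as scaled. This direction turned with loess normalization (log2 ratio -0.51) and without a floor (-0.88), and with poly-A scaling the log2 ratio was 1.33, past 2-fold. Its other probe sets were below the floor in both arrays, at 42.4 and 5.6 for one and at 1.98 and 1.96 for the other. Slc39a11 (ZIP11), an intracellular member, had signals of 887 and 1229, 1.39-fold higher. Its log2 ratio of 0.47 was the highest of the 10 genes as scaled, and was 1.49, past 2-fold, with poly-A scaling. Each of these 3 genes rested on 1 measured probe set, so there was no second reading of its difference.

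Among importers of the cell surface, Slc39a1 and Slc39a3 were nearly equal in both arrays as scaled, and over the 10 settings described below they lay between -0.16 and 0.18 (log2) of the median of all genes. Slc39a1 (ZIP1), a zinc importer of the plasma membrane found in many tissues, read 2359 in wild-type cells and 2365 in knockout cells, a log2 ratio of 0.0037. Slc39a3 (ZIP3), its close relative, was read by 2 probe sets, with signals of 383 and 391 on the first and 361 and 354 on the second. Their log2 ratios, 0.03 and -0.03, differed by less than probe sets of a gene usually do on these arrays: the SD between probe sets had a median of 0.34 over 5700 genes, and was 0.043 for Slc39a3.

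Slc39a6 (ZIP6, or LIV-1) and Slc39a10 (ZIP10) are close relatives that join in 1 zinc-importing complex, and the probe sets of each gave unlike ratios. The brightest Slc39a6 probe set had signals of 5563 and 3585, 1.55-fold lower in *Slc39a13*-KO. The next had 756 and 890, 1.18-fold higher. A dimmer one, of the kind that can bind related transcripts, read 146 in wild-type but 64.7, under the floor, in *Slc39a13*-KO, so it was at least 1.71-fold lower. The dimmest was under the floor in both (74.8 and 59.4). The mean log2 ratio of Slc39a6 was -0.39 with an SD of 0.55 between its 3 measured probe sets, 1 of them a bound. The mean turned to 0.50 with poly-A scaling. This SD describes how far probe sets disagree and not the spread between cultures. With 1 array per genotype, no ZIP gene could be shown to differ or not to differ. For Slc39a10 the brighter probe set had signals of 1321 and 1285 and the dimmer 228 and 343, log2 ratios of -0.04 and 0.59. Its mean log2 ratio was 0.27, with an SD of 0.44 between the 2 probe sets.

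Slc39a8 (ZIP8) and Slc39a14 (ZIP14) form a pair apart within the family: both carry manganese, iron and cadmium as well as zinc, and both are induced by inflammatory signals. In these arrays they lay on opposite sides of zero under every scaling tried in which Slc39a8 was measured. On its brighter probe set Slc39a8 read 263 in wild-type cells and 9.2 in knockout cells, at least 3.10-fold lower against the floor. The dimmer probe set, at 32.6 and 16.3, did not reach the floor, so the difference rests on 1 probe set and 1 wild-type signal. Slc39a14 was read by 3 measured probe sets that were all higher in *Slc39a13*-KO: 1194 and 1576, 171 and 271, and 124 and 148. The corresponding log2 ratios were 0.40, 0.66 and 0.26, and their mean was 0.44 with an SD of 0.20 between probe sets, under the 2-fold threshold. The remaining Slc39a14 probe set was far under the floor (10.1 and 15.7). The difference between Slc39a8 and Slc39a14 was not tested.

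**Figure D2:**
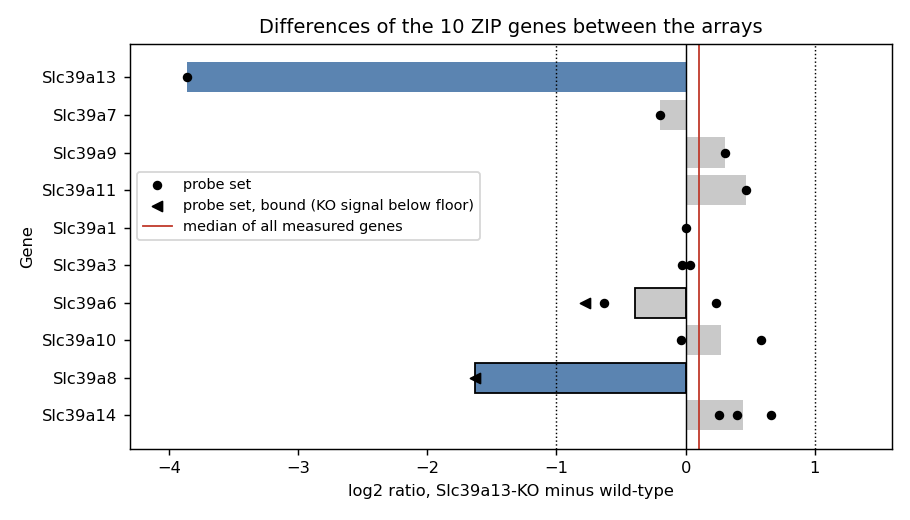
Log2 ratio between the genotypes (horizontal, Slc39a13-KO minus wild-type, as scaled) for the 10 ZIP genes, with bars for the mean over measured probe sets, points for single probe sets, a triangle and a black outline for ratios that are bounds, dotted lines at 2-fold and a red line at the median of all measured genes (0.11). The 2 blue bars, Slc39a13 and Slc39a8, are past the 2-fold line; the probe sets of Slc39a6 and Slc39a10 fall on both sides of zero and those of Slc39a14 all to the right.

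Set against all measured probe sets, 13 ZIP probe sets other than those of Slc39a13 and Slc39a8 lay well inside the spread. These 13 exceeded the floor in each array, and their log2 ratios ran from -0.63 to 0.66, with 9 above and 4 below zero. Of the 18068 probe sets with 1 gene symbol and such signals, 10096 were above and 7972 below zero. The Slc39a6 probe set at 146 and 64.7 is not among the 13. It fell under the floor in *Slc39a13*-KO, so its log2 ratio was -0.78 or lower, and its place in the spread is open. For comparison, among all probe sets exceeding the floor in each array, those with a mean signal between 200 and 400 had log2 ratios of -1.22 at the 5th percentile and 1.47 at the 95th, and those over 3200 had -1.12 and 0.99. These spreads hold true differences between the cultures together with noise, which 2 arrays cannot separate.

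**Figure D3:**
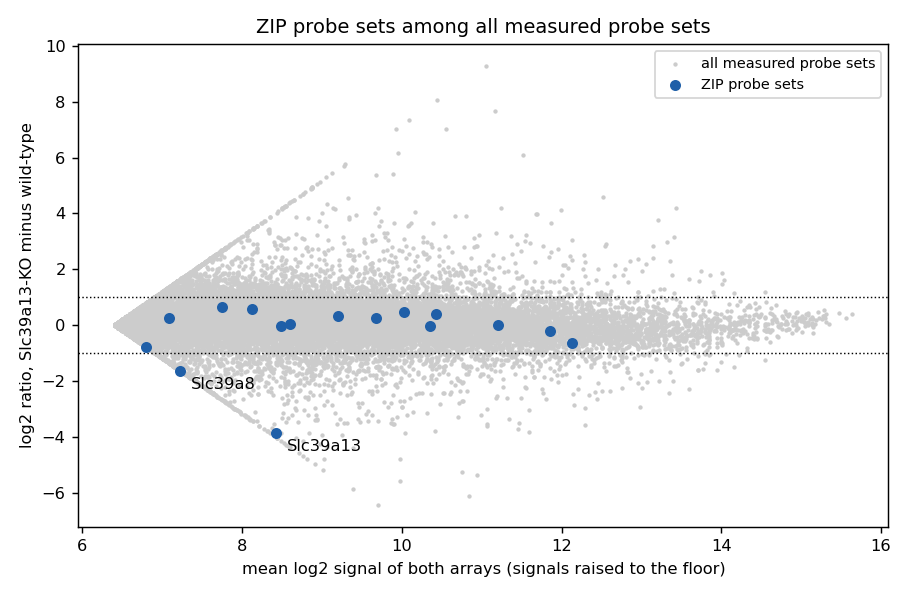
Log2 ratio of Slc39a13-KO over wild-type (vertical) against the mean log2 signal of both arrays after raising to the floor (horizontal) for all 21885 measured probe sets (grey) and the 16 measured ZIP probe sets (blue), with dotted lines at 2-fold. The Slc39a13 and Slc39a8 points lie below the lower dotted line, Slc39a8 on the edge formed by the floor, and the other ZIP points lie between the lines.

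Relative to the median of all genes, the low Slc39a13 and Slc39a8 values stayed low under each scaling tried. Over 10 settings of scaling, floor and probe set choice, the log2 ratio of Slc39a13 minus that median ran from -4.02 to -2.09, and that of Slc39a8 from -3.08 to -1.08 over the 9 in which it was measured. Slc39a14 stayed between 0.28 and 0.51 and Slc39a11 between 0.31 and 0.55 above the median of all genes, never reaching 2-fold. Slc39a9 changed sides, from -1.04 when signals under the floor were kept to 0.39 with poly-A scaling.

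**Figure D4:**
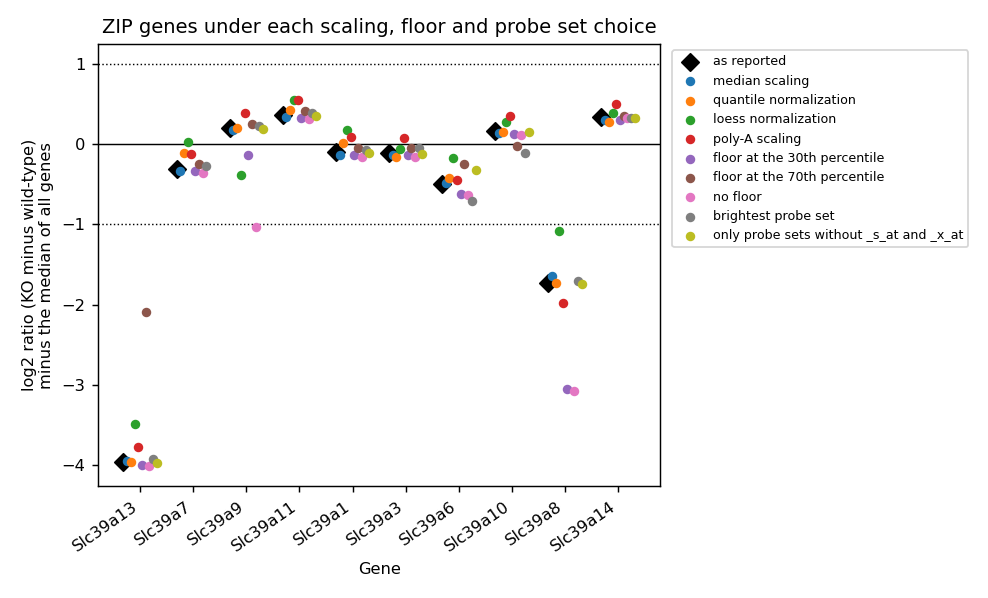
Log2 ratio of Slc39a13-KO over wild-type minus the median log2 ratio of all measured genes (vertical) for the 10 ZIP genes under the reported processing (black diamonds) and 9 alternatives (coloured points), with dotted lines at 2-fold. Slc39a13 and Slc39a8 lie below the lower line throughout, and the remaining genes lie between the lines except Slc39a9 with no floor, at -1.04.

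The other ZIP genes on the array did not reach the floor. Slc39a2 (ZIP2), Slc39a4 (ZIP4, the intestinal importer), Slc39a5 (ZIP5) and Slc39a12 (ZIP12, known from brain) were read by 5 probe sets, all below the floor in both arrays. Slc39a2 had signals of 41.5 and 6.0, Slc39a4 16.9 and 65.9, and Slc39a5 12.2 and 17.3. The Slc39a12 probe sets had 23.2 and 26.8, and 17.3 and 2.86. Of 14 ZIP genes read by the array, the 10 described above were those with a signal over the floor in either culture. The 10 were chosen with earlier results of these data known, so this split is not a separate finding.

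On the other side of zinc balance, 11 of 15 zinc exporters, metallothioneins and Mtf1 were measured. Of these 1 was higher and 1 lower at 2-fold, where 8.01% and 5.93% of all measured genes were. Their median log2 ratio was 0.12 as scaled, beside 0.11 for all genes. With poly-A scaling 7 of 12 were higher and 0 lower, and the median was 1.10, beside 0.94 for all genes. Mt1, a metallothionein that zinc induces through the metal-sensing factor MTF-1, was 2.16-fold higher (1368 and 2950), and the metallothionein Mt3 at least 2.13-fold lower (181 in wild-type, below the floor in *Slc39a13*-KO). Mt1 missed 2-fold with median scaling (log2 ratio 0.86), and Mt3 missed it with loess normalization (-0.82) and poly-A scaling (-0.30). Mtf1 itself had a mean log2 ratio of -0.05 as scaled, with an SD of 0.49 between 3 probe sets, and of 0.96 with poly-A scaling.

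MTF-1 binds metal response elements, and the start regions of the ZIP genes were searched for their core, TGCACNC or TGCGCNC, on both strands, in RefSeq windows from 250 bases before to 50 bases after each annotated start (GRCm38.p6). The 8 ZIP genes with a window had 11 windows, of which 5 (45.5%), from 4 genes, held a core, against 25.7% of all 32851 windows of the same length. Each stretch below is 30 bases on the strand of the gene, with the core in capitals, reversed where it lies on the opposite strand. Of the genes with a core, Slc39a13, itself the targeted gene, and Slc39a8, on 1 measured probe set, were lower in the *Slc39a13*-KO array. Slc39a3 was almost equal and Slc39a11 a little higher as scaled. Any part of the core in these readings was not tested.
Slc39a13, chr2:91070280-91070309 (minus strand): tgtgacgtggcTGCACGCcgggggtggctc
Slc39a8, chr3:135825627-135825656 (plus strand): ttatctctaaaGGGTGCAgggcctgatctc
Slc39a3, chr10:81037441-81037470 (minus strand): catttggtagcTGCACTCatgtttagaaag
Slc39a11, chr11:113650089-113650118 (minus strand): aaagggaaggaGAGCGCAgcgaacccacgg
Slc39a11, chr11:113565937-113565966 (minus strand): tttcctggggtGTGTGCActgccctaggcc
Counted from the start site of each window, the first base of the core lay at 18 in Slc39a13, at -19 in Slc39a8, at -144 in Slc39a3, and at -15 and -140 in separate windows of Slc39a11. A match of this length is a description of the sequence, and no binding was measured.

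To see the locus around the targeted allele, the 8 nearest genes with a named probe set on each side of Slc39a13 on chromosome 2 were read as well. Of the 16, 11 were measured, with a median log2 ratio of 0.08 as scaled (0.99 with poly-A scaling, beside 0.94 for all genes). Of these 0 were at least 2-fold lower and 1 was higher as scaled, where 5.93% and 8.01% of all measured genes were. With poly-A scaling 7 of 14 measured were higher and 0 lower, but there the median of all genes (0.94) was itself just under 2-fold. C1qtnf4, the farthest on its side, was at least 2.04-fold higher (below the floor in wild-type, 174 in *Slc39a13*-KO), a call lost with median, quantile and loess scaling (log2 ratios of 0.91, 0.92 and 0.32). Psmc3, a proteasome ATPase and the measured gene next to Slc39a13, had signals of 5560 and 4465, 1.25-fold lower as scaled (log2 ratio -0.32) and on the other side of zero with poly-A scaling (0.71). Ddb2, a DNA damage binding protein, was 1.59-fold higher, and its 2 probe sets had a mean log2 ratio of 0.67 with an SD of 0.14 (1.63, past 2-fold, with poly-A scaling). Spi1, the macrophage factor PU.1 and the second gene on the opposite side, was below the floor in both arrays.

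**Figure D5:**
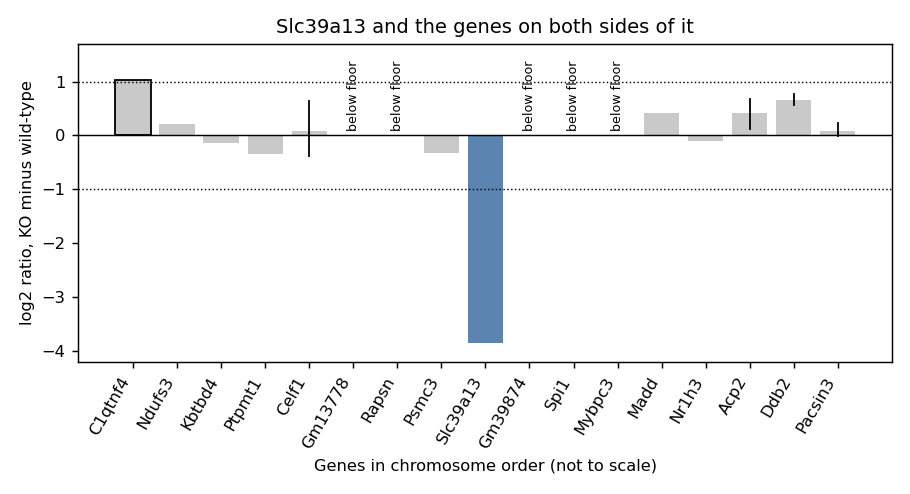
Log2 ratio of Slc39a13-KO over wild-type (vertical) for Slc39a13 (blue) and the 8 nearest genes on each side in chromosome order (grey), with lines for the range over probe sets, a black outline for a bound and dotted lines at 2-fold. Slc39a13 alone lies below the lower line, and the outlined bar of C1qtnf4 just passes the upper one as scaled, but not with median, quantile or loess scaling; with poly-A scaling Psmc3 moves above zero.

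Other features of the cultures also differed between the arrays. Of 15 genes listed as inducers of Slc39a8 and Slc39a14 or as targets of NF-κB, the inflammatory transcription factor, 11 were measured. Of these 8 were at least 2-fold lower in *Slc39a13*-KO and 0 higher, where 5.93% and 8.01% of all measured genes were. With poly-A scaling 4 were lower and 1 higher, and the median log2 ratio of the list was -0.56 in place of -1.58. Summed over the brightest probe set of each gene, the list gave 17772 in wild-type against 7142 in *Slc39a13*-KO cells. Nfkbia, which was not called, gave 4902 and 3919 of these sums. Socs3 and Il1b, also not called, went the other way as scaled, with log2 ratios of 0.41 and 0.21. Ccl2 and Ccl7, which encode monocyte chemoattractants, were lower by factors of at least 27.7 and 16.6. Il6, the cytokine that induces Slc39a14 in liver, was lower by a factor of at least 14.0 (1194 in wild-type), and these 3 genes were called lower under each scaling tried. Slc39a14 was 1.36-fold higher. The part of these signals in the Slc39a8 value was not tested.

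Markers of several cell types differed as well. The counts below stand beside 8.01% of all measured genes higher and 5.93% lower by the same rule as scaled. The median log2 ratio of all measured genes was -0.13 with loess normalization and 0.94 with poly-A scaling. Of 9 osteoblast markers with a named probe set 7 were measured, 3 were higher (Alpl, Pth1r and Dmp1) and 0 lower, of which Pth1r alone was called with loess normalization. Col1a1, Col1a2 and Sparc were bright in both arrays, with signals of 27130 and 28010, 33360 and 35380, and 44390 and 58090 on their brightest probe sets. The other Col1a1 probe set was lower in *Slc39a13*-KO (log2 ratio -1.40, beside 0.05 for the brightest), so the mean of Col1a1 was -0.68 with an SD of 1.02. Alpl, the alkaline phosphatase of mineralizing cells, did not reach the floor in wild-type and read 197 in knockout cells, whereas Ibsp and Phex, markers of mature osteoblasts and osteocytes, were below it in both. Cartilage markers were higher in *Slc39a13*-KO for 16 of 17 measured and lower for 0 (higher for 13 of 16 with loess normalization). Their summed signals were 9213 and 152937, and Cnmd (52990) and Col2a1 (47020) were the largest parts of the *Slc39a13*-KO sum. In wild-type 11 of 18 were below the floor, Acan among them. Macrophage markers, of a cell type that also makes Slc39a8, were higher for 6 of 11 and lower for 0 (higher for 4 of 9 with loess normalization). Their summed signals were 1041 and 4886, and 10 of 14 were below the floor in wild-type. Smooth muscle markers were lower for 6 of 8 and higher for 1, with summed signals of 78940 and 31854. These counts were 4 of 8 and 1 with loess normalization, and 2 of 8 and 1 with poly-A scaling. The part of these shifts in the ZIP values was not tested.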

How the data were processed

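RNA of primary osteoblasts was read on 1 array for wild-type and 1 for *Slc39a13*-KO, grouped by the labels. The deposited values are linear signal intensities. The submitters' processing notes name MAS5 without a version, while the study's methods name gcRMA. The 2% trimmed mean was 500.0 in both arrays, so total mRNA per cell cannot be compared. The number of arrays limits the precision.

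Of 45101 probe sets 64 were controls, 34945 had 1 gene symbol, 932 several and 9160 none in the platform annotation. By gene ID, 34741 of the named probe sets matched RefSeq (GRCm38.p6), and 0 symbols differed. Probe sets with several symbols or none were left out. Signals were raised to the 50th percentile of the pooled signals (85.1) and log2 was taken, with no pseudocount. A gene took the mean over its measured probe sets and was called at 2-fold, the study's threshold, if all of them had the same sign. All 10 member genes were named, and in other lists up to 3 called genes in each direction by size. Genes named beyond this serve as markers or neighbours. The members and lists were chosen with earlier results of these data known. The step that makes calls was checked on simulated data, with folds larger than the threshold and signals above the floor in both arrays. That check did not cover bounds, folds near 2-fold or differences between cultures. Alternatives covered scaling, floor, probe set choice and fold threshold. The scalings of the lists other than the ZIP genes were added after their values were seen. Python 3.11.15, NumPy 2.4.6, pandas 2.3.3, SciPy 1.17.1 and statsmodels 0.14.6 were used.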

Additional observations from a re-analysis of the deposited data

How the results depend on the processing

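With poly-A scaling, which adds 1.02 to every log2 ratio above the floor, 6 ZIP genes (Slc39a1, Slc39a3, Slc39a9, Slc39a10, Slc39a11 and Slc39a14) and 9 ZIP probe sets were at least 2-fold higher, the median of the 9 genes other than Slc39a13 was 1.03 (0.94 for all genes) and the Slc39a13 log2 ratio was -2.83. Raising the floor to the 70th percentile, which left Slc39a8 unmeasured, gave 1 gene and 1 probe set, both of Slc39a13, as lower, with a log2 ratio of -2.04, a bound. With no floor 5 probe sets were lower: those of Slc39a13 and Slc39a8 (2), and 1 each of Slc39a6 and Slc39a9, with 4 of the 5 resting on signals otherwise raised to the floor. At 1.5-fold 2 probe sets were higher and 4 lower. Loess normalization and the floor at the 30th percentile each gave 3 lower probe sets in place of 2. The counts of higher and lower ZIP genes and probe sets were as reported under the remaining alternatives. Among the 9 other genes, Slc39a8 ran from -2.92 to -1.05, Slc39a6 from -0.63 to 0.50, Slc39a7 from -0.44 to 0.83, Slc39a14 from 0.20 to 1.45 and Slc39a9 from -0.88 to 1.33. Slc39a8 was measured in 8 of 9 alternatives and was called lower in those 8. No paired analysis was possible because each genotype had 1 array. MAS5 values far below the floor are noisy, so folds against them are given as bounds. No depth is defined for arrays, and the single array per genotype sets the limit: neither the spread between animals nor that between cultures was measured.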
